A study of Mus musculus with 6 samples.

Results

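The Ms4a genes encode small membrane proteins with 4 membrane-spanning segments and lie together in a cluster on mouse chromosome 19. The 10 genes described here were taken by symbol from the platform annotation: Ms4a1, Ms4a2, Ms4a3, Ms4a4b, Ms4a4c, Ms4a6b, Ms4a6c, Ms4a6d, Ms4a7 and Ms4a8a. Each had 1 probe set, so they make up 10 of the 19505 genes named on the array and 10 of its 22206 probe sets. They were measured in mouse HoxB8 neutrophil progenitors, cells kept immature by the homeobox factor Hoxb8, after 1 day in differentiation medium with serum and stem cell factor supernatant. One group of 3 arrays came from cells expressing wild-type C/EBPα (WT) and the other from cells expressing K313-C/EBPα (K313), a form associated with acute myeloid leukaemia whose effect on C/EBPα activity is the question of the series. The labels do not say how the forms were introduced, whether the cells kept their own Cebpa, or whether a line is 1 clone or several, and nothing says that the replicates of a group were separate cultures. The p-values therefore reflect only how far these arrays differ, which may be technical.

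MS4A proteins sit in the plasma and endosomal membranes of blood cells, where several associate with receptors and tune their signalling. Ms4a1 is Cd20 of B cells and Ms4a2 is the β chain of the high-affinity IgE receptor of mast cells and basophils. Ms4a3 marks granulocyte and monocyte progenitors, while the Ms4a4, Ms4a6, Ms4a7 and Ms4a8 genes are known mostly from T cells, monocytes and macrophages.

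Of the 10 genes, 5 rose in K313 and 0 fell. Ms4a6c rose 19.9-fold and Ms4a6b 8.32-fold, and Ms4a6d (1.81-fold), Ms4a4b (1.77-fold) and Ms4a3 (1.75-fold) rose less. Over all probe sets 3.77% were called higher and 3.97% lower with limma at an adjusted p of 0.05, and the median change, K313 minus WT, was 0.02 on the log2 scale against 0.53 over the 10 genes. The 10 genes were chosen with earlier results of these data known. Counting all 18 Ms4a genes with a probe set, the same 5 rose, 0 fell and the median change was 0.17. Among the 10, the 3 K313 values lay above the 3 WT values for these 5 genes, which held for 11.0% of all probe sets. Of the 5 genes not called, Ms4a1, Ms4a4c, Ms4a7 and Ms4a8a lay below the array median in all 6 arrays, and Ms4a2 lay above it in all 6. The count of called genes depended on single arrays: leaving out WT replicate 1, 2 or 3 gave 4, 3 and 2 called genes, and leaving out K313 replicate 1, 2 or 3 gave 3, 4 and 2.

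**Figure D1:**
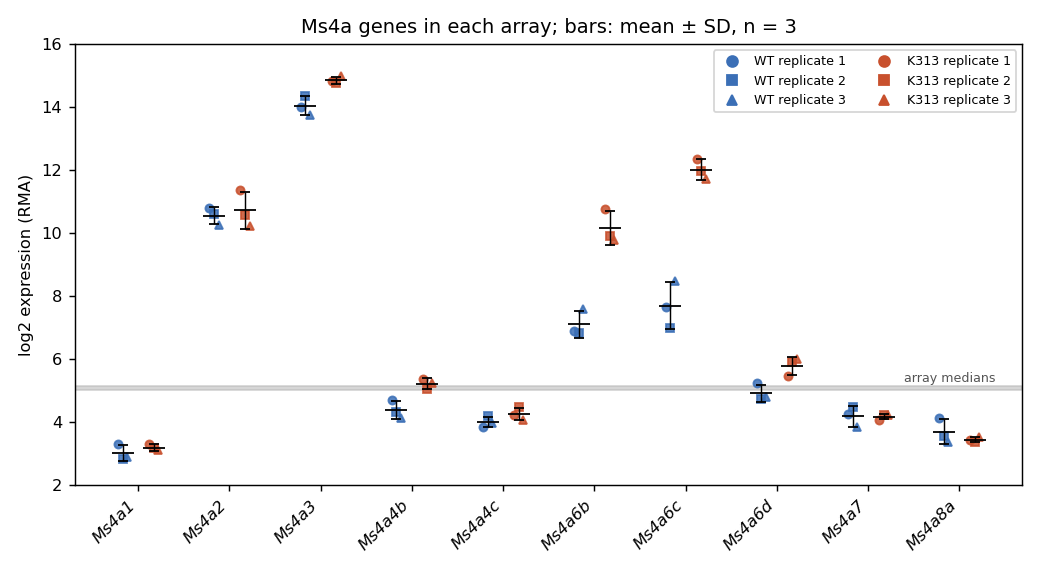
Log2 expression of the 10 Ms4a genes (vertical axis) in each WT and K313 array; black bars are the mean ± SD of 3 arrays and the grey band spans the array medians, 5.01 to 5.13. Ms4a6c and Ms4a6b are the genes with a wide gap between the groups, and Ms4a1, Ms4a4c, Ms4a7 and Ms4a8a lie under the band in every array.

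The 250 bases before the RefSeq transcription start (GRCm38.p6) of Ms4a6c and Ms4a6b, the pair that rose most, are shown first, 5′ to 3′, because they share sequence; capitals mark identical runs of at least 16 bases found in both.
Ms4a6c (chr19:11469118-11469367, plus strand): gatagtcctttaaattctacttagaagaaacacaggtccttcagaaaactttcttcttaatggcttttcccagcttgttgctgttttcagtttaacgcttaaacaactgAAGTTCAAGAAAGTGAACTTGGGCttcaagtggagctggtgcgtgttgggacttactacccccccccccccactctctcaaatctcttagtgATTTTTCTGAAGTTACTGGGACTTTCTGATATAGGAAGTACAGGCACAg
Ms4a6b (chr19:11518309-11518558, plus strand): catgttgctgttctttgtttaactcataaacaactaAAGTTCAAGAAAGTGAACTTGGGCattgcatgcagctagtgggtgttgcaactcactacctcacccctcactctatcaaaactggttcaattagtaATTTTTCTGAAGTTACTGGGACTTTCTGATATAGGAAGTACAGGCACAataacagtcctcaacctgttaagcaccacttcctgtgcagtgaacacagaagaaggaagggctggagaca
The pair shared a run of 24 bases and a run of 48 bases, and neither run occurred in the promoter of any other gene in the table of 32851 promoters. The 48-base run began 49 bases before the start of Ms4a6c and 118 bases before that of Ms4a6b, so the shared blocks lie at different distances from the annotated starts. Over the 300-base windows (250 bases before to 50 after the start) 64.0% of positions were identical after alignment. No promoter was found in the table for Ms4a1 or Ms4a6d.

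The neighbours Ms4a4c and Ms4a4b form the other similar pair, shown because only Ms4a4b passed the test; capitals again mark identical runs of at least 16 bases.
Ms4a4c (chr19:11407411-11407660, plus strand): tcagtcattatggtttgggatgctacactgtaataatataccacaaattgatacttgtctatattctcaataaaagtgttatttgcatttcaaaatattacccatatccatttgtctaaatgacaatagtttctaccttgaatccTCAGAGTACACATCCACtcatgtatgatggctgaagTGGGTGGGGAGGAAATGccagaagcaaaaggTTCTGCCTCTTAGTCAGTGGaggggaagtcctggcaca
Ms4a4b (chr19:11443308-11443557, plus strand): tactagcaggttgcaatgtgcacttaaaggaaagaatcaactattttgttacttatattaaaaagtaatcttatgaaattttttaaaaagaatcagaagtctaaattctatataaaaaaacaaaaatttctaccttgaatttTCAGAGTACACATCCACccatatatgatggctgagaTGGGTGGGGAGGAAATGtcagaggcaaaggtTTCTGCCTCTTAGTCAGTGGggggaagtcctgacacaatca
Their windows were 76.7% identical, with a longest shared run of 20 bases. The other 26 pairs among the 8 genes with a promoter shared runs of 6 to 12 bases and were 51.0% to 57.7% identical. The 2 runs of 17 bases occurred in 1 further promoter, that of Gm8369, a gene model inside the cluster.

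Ms4a6c, which is expressed in monocytes and their precursors, had the largest change. On the log2 scale it read 7.64, 6.97 and 8.47 in WT and 12.36, 11.97 and 11.70 in K313, given here and below in the order of replicates 1 to 3. The lowest K313 array lay far above WT replicate 3, the highest of the WT arrays. The means were 7.69 ± 0.75 and 12.01 ± 0.33 (SD, n = 3), a change of 4.32 ± 0.32 (SE; 95% interval 3.61 to 5.03; limma adjusted p = 7.36e-06). Ms4a6c kept its call in all 13 alternative fits.

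Ms4a6b, known from T cells, where it associates with co-stimulatory receptors, read 6.89, 6.82 and 7.58 in WT and 10.77, 9.92 and 9.77 in K313. Again WT replicate 3 was the highest WT array and K313 replicate 1 the highest of all. The change was 3.06 ± 0.28 (SE, n = 3 per group; 95% interval 2.44 to 3.67; limma adjusted p = 3.29e-05), and with ordinary variance per probe set the adjusted p was 0.0572. The array's probe sequences are not used here, so how far the probe sets of these related genes tell them apart was not tested.

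Ms4a6d, a macrophage protein, lay near the array medians. Its values were 5.23, 4.73 and 4.80 in WT and 5.45, 5.89 and 5.99 in K313, so that the groups were separated only by the gap between WT replicate 1 and K313 replicate 1. The change was 0.86 ± 0.20 (SE, n = 3 per group; 95% interval 0.42 to 1.30; limma adjusted p = 0.0222). The call ended in 6 of 13 alternative fits: on leaving out replicate 2 of WT (limma adjusted p = 0.0771), replicate 3 of WT (0.0832), replicate 2 of K313 (0.0958) or replicate 3 of K313 (0.101), with ordinary variance (0.21) and with the replicate number as a block (0.0525).

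Ms4a4b, a T cell membrane protein also called Chandra, read 4.70, 4.33 and 4.14 in WT and 5.38, 5.04 and 5.23 in K313. Its WT values were below the array medians and its K313 values close to them, where RMA compresses differences. The change was 0.83 ± 0.18 (SE, n = 3 per group; 95% interval 0.42 to 1.23; limma adjusted p = 0.0176). It was not called after leaving out replicate 2 (limma adjusted p = 0.0539) or 3 (0.0753) of WT or replicate 1 (0.0743) or 3 (0.0635) of K313, nor with ordinary variance (0.165). The similar neighbour Ms4a4c, a gene inducible by interferon, read 3.84, 4.18 and 3.98 in WT and 4.23, 4.47 and 4.08 in K313, with overlapping groups and a difference of 0.26 ± 0.17 (adjusted p = 0.504; 95% interval -0.11 to 0.63). Whether the changes of Ms4a4b and Ms4a4c differ from each other was not tested.

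Ms4a3, the progenitor gene also called HTm4, was far above the array medians in both groups. It read 14.01, 14.35 and 13.76 in WT and 14.82, 14.75 and 14.97 in K313, with every K313 array above every WT array. The change was 0.81 ± 0.18 (SE, n = 3 per group; 95% interval 0.41 to 1.21; limma adjusted p = 0.0183). The call ended on leaving out replicate 1 (limma adjusted p = 0.0557) or 3 (0.0759) of WT or replicate 1 (0.0546) or 3 (0.0799) of K313, and with ordinary variance (0.16).

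The last 30 bases of the Ms4a3 promoter window, 20 to 49 bases after the start (counting the start as 0), hold the only match to the C/EBP motif TTGCNNAA among the 8 genes with a promoter; capitals mark it and a match to the PU.1 motif GAGGAA that directly precedes it.
Ms4a3 (chr19:11640802-11640831, minus strand): tccactggacttgctGAGGAATTGCACAAa
Searched on both strands, TTGCNNAA occurred in 10.8% and GAGGAA in 28.3% of all promoter windows of the same length. GAGGAA was also found for Ms4a4b, Ms4a4c and Ms4a7. These matches are letters in a window, and no binding was measured.

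Ms4a2, the IgE receptor β chain, carries a cytoplasmic signalling motif that binds Lyn and amplifies the receptor's signal. It read 10.78, 10.61 and 10.27 in WT and 11.38, 10.57 and 10.23 in K313. K313 replicate 1 was the highest array, and the other K313 arrays lay within or just under the WT range. The difference was 0.17 ± 0.27 (SE, n = 3 per group; 95% interval -0.42 to 0.76; limma adjusted p = 0.825), and without K313 replicate 1 it was -0.15. Fcer1a, the IgE-binding α chain, read 3.46, 3.87 and 3.55 in WT and 3.72, 3.69 and 3.52 in K313, below the array median in all 6 arrays. Fcer1g, the γ chain that other Fc receptors also use, read 15.98, 15.89 and 15.89 against 15.76, 15.74 and 15.88, a difference of -0.13 ± 0.15 (adjusted p = 0.752).

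Among 18 measured genes of the 20 listed for the IgE receptor and its signalling, 5 fell and 0 rose, where 3.97% of all probe sets were called lower and 3.77% higher. The median change was -0.34 against 0.02 over all probe sets. The adaptor Lat2 read 9.35, 9.29 and 9.36 in WT and 6.29, 6.88 and 6.52 in K313, a change of -2.77 ± 0.18 (SE). The Src family kinase Fyn changed by -2.16 ± 0.22, the adaptor Lat by -1.12 ± 0.18, the adaptor Grap2 by -1.13 ± 0.21 and the docking protein Gab2 by -0.99 ± 0.19 (limma adjusted p of the 5 genes at most 0.00645). With ordinary variance Lat2 kept its call (adjusted p = 0.024), while Fyn (0.055), Lat (0.079), Grap2 (0.147) and Gab2 (0.127) did not. The kinases Syk (-0.38 ± 0.16, adjusted p = 0.235) and Btk (-0.36 ± 0.17, 0.321) did not pass the test.

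**Figure D2:**
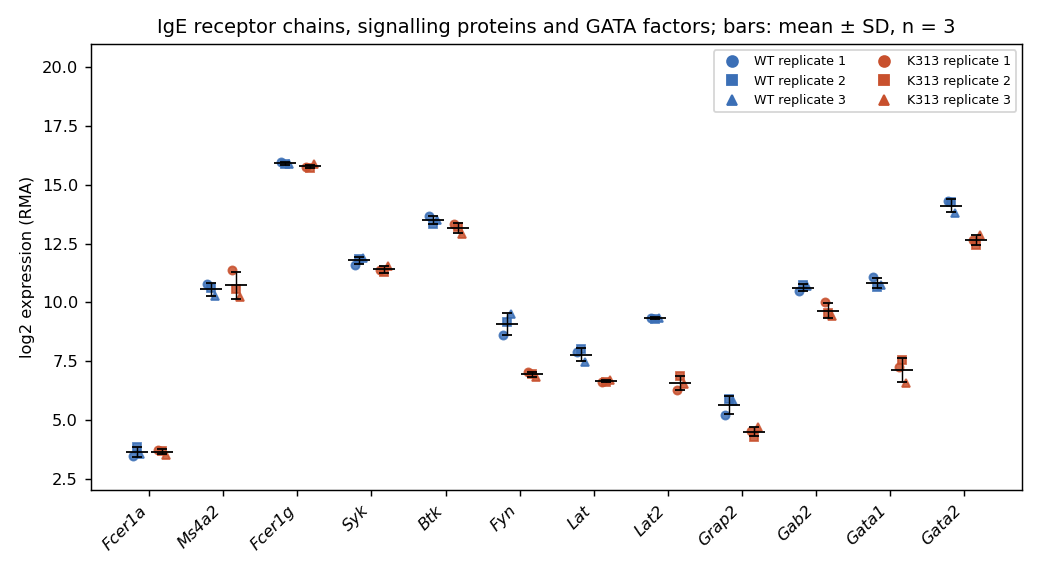
Log2 expression (vertical axis) of the IgE receptor chains Fcer1a, Ms4a2 and Fcer1g, of 7 signalling proteins and of Gata1 and Gata2 in each array; black bars are the mean ± SD of 3 arrays. The WT and K313 points of Ms4a2 and Fcer1a overlap, whereas those of Lat2, Fyn, Lat, Grap2, Gab2, Gata1 and Gata2 do not. Those of the uncalled genes Fcer1g, Syk and Btk do not overlap either, by a narrow gap. All K313 values lay below all WT values in 2427 of the 22206 probe sets.

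The Ms4a2 promoter is shown because it held 3 matches to the GATA motif AGATAA (both strands searched), in capitals. Among all 32851 promoters, 35 (0.107%) held at least 3, and 11.2% held at least 1; no other of the 8 genes had a match.
Ms4a2 (chr19:11623720-11623969, minus strand): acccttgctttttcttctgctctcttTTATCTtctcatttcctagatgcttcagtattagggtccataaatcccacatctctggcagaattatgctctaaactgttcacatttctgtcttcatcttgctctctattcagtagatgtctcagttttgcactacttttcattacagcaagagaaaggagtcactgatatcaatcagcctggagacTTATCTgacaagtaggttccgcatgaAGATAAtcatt
Levels of the GATA factors of mast cells and basophils differed between the groups. Gata1 read 11.08, 10.66 and 10.73 in WT and 7.27, 7.56 and 6.58 in K313, and Gata2 read 14.31, 14.26 and 13.79 against 12.66, 12.43 and 12.85. Both fell: Gata1 fell by 3.69 and Gata2 fell by 1.47 on the log2 scale (limma adjusted p = 3.31e-06 and 0.000441). With ordinary variance the adjusted p was 0.0321 for Gata1 and 0.0674 for Gata2. No binding was measured, and whether the matches or these factors bear on the Ms4a2 level was not tested.

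Of 17 measured mast cell and basophil markers (18 listed), 9 fell and 1 rose, where 3.97% of all probe sets were called lower and 3.77% higher. The mean log2 level over this list was 9.53 to 9.74 in the WT arrays and 8.38 to 8.55 in the K313 arrays. The median change was -0.74, and Fcer1a, Tpsab1, Tpsb2 and Mrgprb2 lay below the array median in every array. The prostaglandin D synthase Hpgds changed by -4.50 ± 0.19 and the receptor Cd200r3 by -4.03 ± 0.23, whereas the basophil protease Prss34 changed by 3.98 ± 0.21. Fewer cells of a type and less RNA per cell cannot be told apart in these bulk samples. Of 6 measured eosinophil markers (8 listed), 3 fell and 0 rose: the interleukin 5 receptor Il5ra (-2.88 ± 0.21), the granule protein Prg2 (-1.77 ± 0.29) and the lectin Siglecf (-0.92 ± 0.18). The Siglecf call ended on leaving out replicate 2 of K313 (limma adjusted p = 0.0538) and with ordinary variance (0.14). Prg2 also lost its call with ordinary variance (0.164), while Il5ra kept its call (0.0347).

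Ms4a1, Cd20, lay at the low end of the scale. It read 3.30, 2.84 and 2.90 in WT and 3.30, 3.17 and 3.10 in K313, a difference of 0.18 ± 0.17 (95% interval -0.20 to 0.56; limma adjusted p = 0.693). Of 15 measured B cell markers (16 listed), 4 fell and 0 rose, where 3.97% of all probe sets were called lower and 3.77% higher. On this list 8 lay below the array median in every array, Pax5 and Cd22 among them. The B cell receptor chain Cd79b read 9.87, 9.09 and 9.61 in WT and 5.32, 6.01 and 5.45 in K313, a change of -3.93 ± 0.24, and its partner Cd79a changed by -1.40 ± 0.17. Cd72, a B cell coreceptor, changed by -1.60 ± 0.20 and the surrogate light chain gene Igll1 by -0.87 ± 0.22. Igll1 kept its call in only 1 of the 6 fits that left out an array, the one without WT replicate 1. With ordinary variance neither Igll1 (adjusted p = 0.264) nor Cd72 (0.0708) was called.

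Ms4a7, a macrophage gene, read 4.25, 4.47 and 3.83 in WT and 4.08, 4.22 and 4.21 in K313, a difference of -0.01 ± 0.19 (95% interval -0.42 to 0.40; limma adjusted p = 0.986). Ms4a8a, described in alternatively activated macrophages, read 4.14, 3.56 and 3.38 against 3.44, 3.36 and 3.51, a difference of -0.26 ± 0.20 (adjusted p = 0.603; 95% interval -0.70 to 0.19). The groups overlapped for both genes.

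Monocyte and macrophage markers were read beside Ms4a6c, Ms4a6b and Ms4a6d. Of 19 measured (22 listed), 6 rose and 2 fell, where 3.77% of all probe sets were called higher and 3.97% lower. The mean log2 level over the list was 5.75 to 5.95 in WT and 6.34 to 6.52 in K313. The median change over the list was 0.25, against 0.02 over all probe sets. Cd14, the lipopolysaccharide co-receptor, read 5.20, 4.24 and 5.89 in WT and 9.52, 9.62 and 9.53 in K313, and the coagulation factor subunit F13a1 changed by 2.95 ± 0.26. The genes that fell were the fractalkine receptor Cx3cr1 (-2.04 ± 0.21) and Adgre1, the macrophage antigen F4/80 (-0.78 ± 0.19, limma adjusted p = 0.027). Adgre1 lost its call on leaving out replicate 2 (0.0698) or 3 (0.106) of WT or replicate 2 (0.107) or 3 (0.116) of K313, with the replicate number as a block (0.0629) and with ordinary variance (0.199). F13a1 (0.0518) and Cx3cr1 (0.057) lost their calls only with ordinary variance. C1qa, C1qb, C1qc, Marco, Mertk, Cd163 and Klf4 lay below the array median in every array. The part of these cells' RNA in the Ms4a changes was not tested.

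Granulocyte precursor and neutrophil markers, read beside Ms4a3, gave 7 higher and 2 lower among 19 measured (21 listed), where 3.77% of all probe sets were called higher and 3.97% lower. The mean log2 level over the list was 8.03 to 8.25 in WT and 9.08 to 9.5 in K313, and the median change was 0.36. The neutrophil collagenase Mmp8 read 5.62, 5.15 and 7.30 in WT and 13.28, 12.69 and 13.07 in K313, a change of 6.99 ± 0.43 and the smallest p of the list. The genes that fell were receptors: the chemokine receptor Cxcr2 read 10.52, 10.34 and 10.44 against 8.24, 8.40 and 8.43, a change of -2.08 ± 0.15, and the G-CSF receptor Csf3r changed by -1.03 ± 0.22 (limma adjusted p = 0.012, 0.0613 on leaving out replicate 2 of K313 and 0.199 with ordinary variance). Elastase, Elane, read 12.26, 11.36 and 11.26 against 14.82, 14.56 and 15.36, and cathepsin G, Ctsg, changed by 1.75 ± 0.16. Elane lost its call with ordinary variance (adjusted p = 0.0507). Mpo was high in both groups (18.36 to 18.51 in WT), while the late granule genes Ltf and Camp lay below the array median in every array. The mast cell gene Cpa3, at 17.17 to 17.33 in WT, was also well above the array medians. For Ms4a4b and Ms4a6b, T and NK cell markers gave 1 higher and 1 lower among 13 measured (14 listed), with 8 below the array median in every array. The T cell receptor subunit Cd3g changed by -1.49 ± 0.24, and the NK cell receptor Klrb1c by 1.16 ± 0.25 (limma adjusted p = 0.0137, and 0.0531 on leaving out replicate 2 of K313). With ordinary variance neither was called (0.145 for Cd3g and 0.24 for Klrb1c). For Ms4a4c, 17 measured interferon response genes (20 listed) gave 2 higher and 1 lower with a median change of 0.14. The T and NK cell and interferon counts are small, and whether they depart from the shares over all probe sets was not tested. The viral RNA sensor Ifih1 rose by 3.06 ± 0.33, Ifit2 rose by 1.01 ± 0.23 and Usp18 fell by 0.74 on the log2 scale (limma adjusted p = 0.000102, 0.0198 and 0.0079). The Ifit2 call ended on leaving out replicate 1 of WT (0.0732) or replicate 1 (0.0804) or 3 (0.0777) of K313, and with ordinary variance (0.247). Ifih1 also lost its call with ordinary variance (0.0845), while Usp18 kept its call (0.0208).

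Along chromosome 19 the called Ms4a genes lay in the stretch from Ms4a4c to Ms4a3. RefSeq lists 21 Ms4a genes there, of which 18 had a probe set. In the order of that table, 0 of the 10 measured genes from Ms4a10 to Ms4a7 passed the test and all 10 lay below the array median in every array. The boundary after Ms4a7 was set with the values known, so the counts on either side of it are no test of position. From Ms4a4c to Ms4a3, 5 of 8 rose, where 3.77% of all probe sets were called higher. Between Ms4a6b and Ms4a6d lies Ms4a4d, which read 4.95, 5.63 and 5.70 in WT and 5.40, 5.53 and 5.09 in K313, a difference of -0.09 ± 0.22 (adjusted p = 0.903), so called and uncalled genes alternate within this stretch.

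In the first stretch Ms4a18 came closest to a call, with 4.10, 3.86 and 3.52 in WT and 4.51, 4.32 and 4.64 in K313 (difference 0.66 ± 0.18; limma adjusted p = 0.0543, and 0.0336 on leaving out replicate 1 of WT, 0.044 with array weights and 0.0455 with the low-signal filter). Gm8369, between Ms4a6c and Ms4a6b and sharing the 17-base runs with Ms4a4b and Ms4a4c, read 2.66, 2.53 and 2.77 against 3.40, 3.26 and 3.03, a difference of 0.58 ± 0.16 (adjusted p = 0.0581) at the low end of the scale. Where 3.77% of all probe sets were called higher and 3.97% lower, 0 of the 15 measured genes before the cluster were called, against 1 of the 15 after it. That gene, the oocyte-secreted protein gene Oosp1, fell from 6.24 ± 0.39 to 5.35 ± 0.31 (SD, n = 3; adjusted p = 0.0338), and its call ended in 6 alternative fits, with adjusted p from 0.0543 (replicate block) to 0.284 (ordinary variance); those on leaving out 1 array were replicates 2 (0.0942) and 3 (0.129) of WT and 2 (0.148) and 3 (0.095) of K313.

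**Figure D3:**
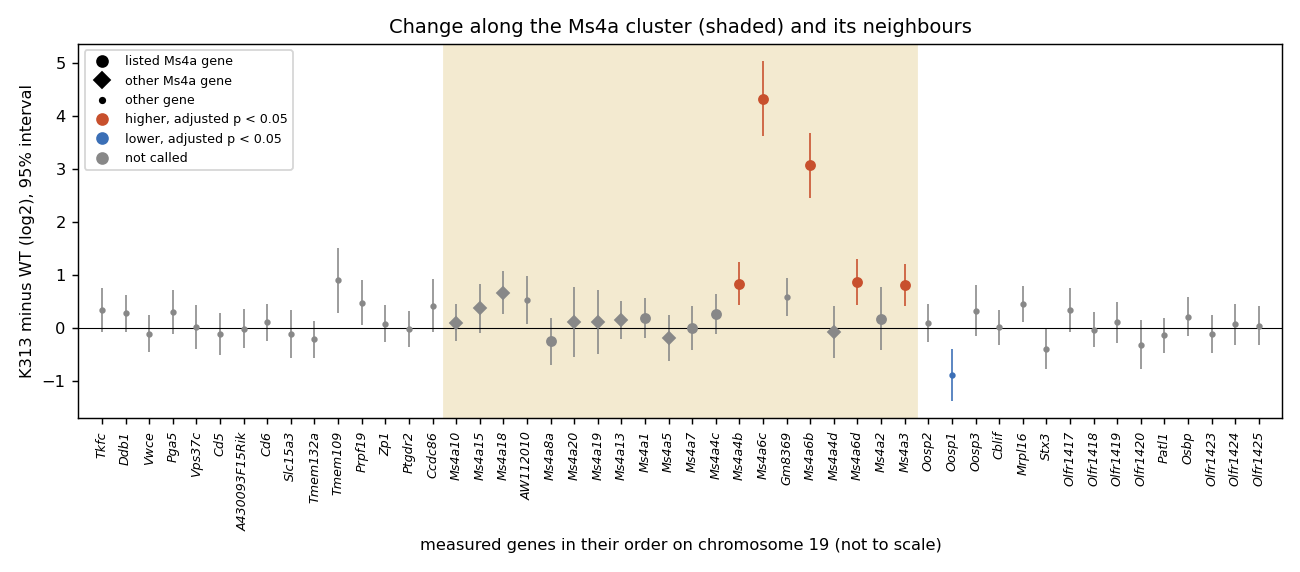
Change (K313 minus WT, log2, vertical axis) with its 95% interval for measured genes in their order on chromosome 19, not to scale: 15 genes before the Ms4a cluster, the cluster (shaded) and 15 genes after it. The 5 red points are the genes that rose, all between Ms4a4c and Ms4a3, and the blue point is Oosp1.

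The related genes Tmem176a and Tmem176b, which lie outside the cluster and encode MS4A-like proteins of endosomal membranes, moved the other way. Tmem176b read 14.59, 13.99 and 14.11 in WT and 11.96, 11.98 and 12.17 in K313, and Tmem176a read 12.29, 12.15 and 12.44 against 10.45, 10.22 and 10.80. The groups did not overlap, and the changes were -2.19 ± 0.19 and -1.80 ± 0.18 (SE, n = 3 per group; limma adjusted p = 1.87e-05 and 7.02e-05). Of the 8 measured genes on the list of further family members, these were the 2 that passed. Over all probe sets 3.97% were called lower and 3.77% higher. All 3 K313 values lay below all 3 WT values in 2427 of the 22206 probe sets.

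Some genes followed the called Ms4a genes closely. After each probe set was centred on its own mean, the profiles nearest to Ms4a6c over the 6 arrays were those of the paraoxonase Pon3 (root mean square difference 0.168 on the log2 scale), the coagulation inhibitor Tfpi (0.176) and the cytokine receptor subunit Il6st (0.218). Pon3 read 7.22, 6.77 and 8.16 in WT and 12.04, 11.69 and 11.81 in K313. In all 3, as in Ms4a6c, WT replicate 2 was the lowest array and WT replicate 3 the highest WT array. Nearest to Ms4a6b were Tbc1d8b (0.197), Gm1966 (0.197) and the plakophilin Pkp4 (0.212), in which K313 replicate 1 was the highest array, as in Ms4a6b. For the small changes the nearest profiles were Mrpl58 (0.0903), Pcbp4 (0.103) and Gtf2h4 (0.112) for Ms4a6d, and Pawr (0.084), Acsf2 (0.0978) and Ms4a18 (0.124) for Ms4a4b. The measure covers 6 arrays in 2 groups, so by its construction genes with a group difference of like size rank near each other.

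**Figure D4:**
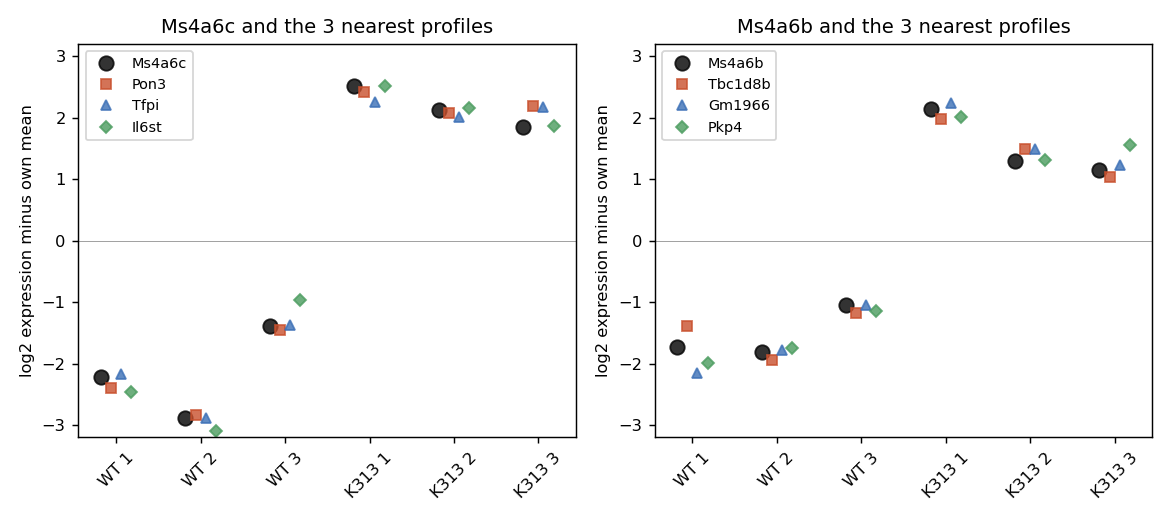
Log2 expression minus each gene's own mean (vertical axis) in the 6 arrays for Ms4a6c (left) and Ms4a6b (right), black circles, with the 3 nearest profiles of each. WT replicate 3 lies above the other WT arrays in both panels.

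The groups also differed in Hoxb8 and in Y-linked genes. Hoxb8 changed by -4.64 ± 0.25, and whether this change follows from the C/EBPα form was not tested. The Y-linked genes Kdm5d and Uty rose by 4.63 ± 0.33 and 7.23 ± 0.65, and the Y-linked gene Eif2s3y read 3.11, 2.93 and 7.03 in WT and 12.37, 12.09 and 12.24 in K313; Cebpa differed by -0.51 ± 0.21 (limma adjusted p = 0.212), and the labels do not state whether its probe set sees the introduced forms. In these groups the effects of such differences and of the C/EBPα form on the Ms4a genes cannot be told apart. Without WT replicate 3, the WT array with the higher Eif2s3y, Ms4a6c changed by 4.70 and Ms4a6b by 3.30. Between the groups, arrays correlated at 0.983 to 0.986 over probe sets, or 0.987 to 0.989 for pairs with WT replicate 3, and within groups at 0.994 to 0.996.

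**Figure D5:**
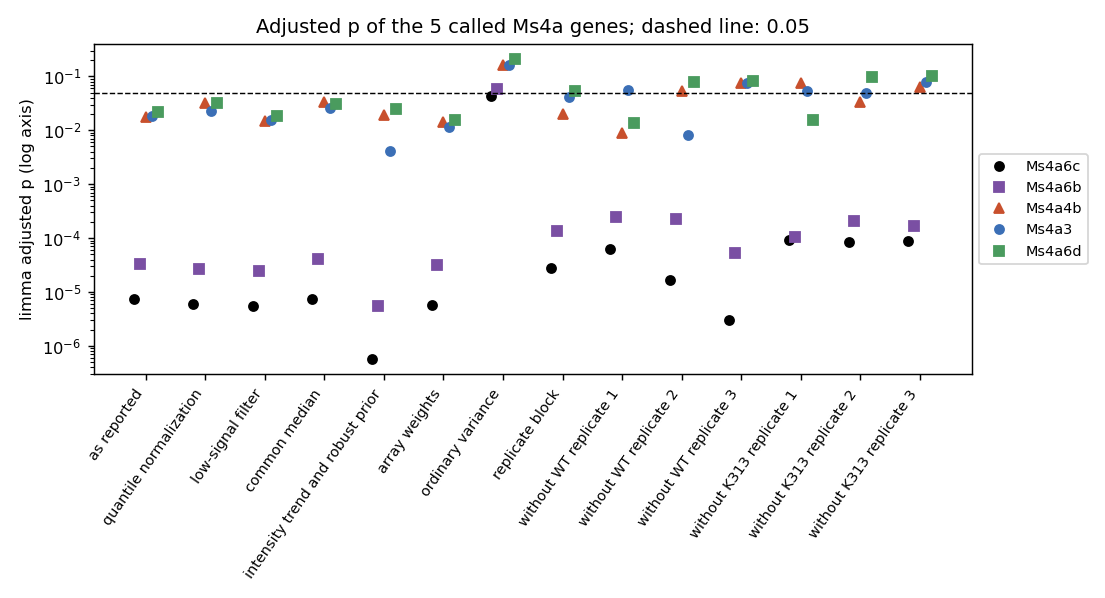
Limma adjusted p (vertical log axis) of the 5 Ms4a genes that rose, as reported and in 13 alternative fits; the dashed line is 0.05. Ms4a6c stays below the line throughout and Ms4a6b in all but ordinary variance (0.0572), while Ms4a4b, Ms4a3 and Ms4a6d cross it in 5, 5 and 6 fits.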

How the data were processed

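Total RNA from 6 samples was hybridised to Affymetrix Mouse Clariom S arrays, 3 WT and 3 K313, grouped by their titles. The deposited values are log2 expression per probe set, made by the authors with RMA and the Transcriptome Analysis Console, per the submitters' processing notes; versions are not given in the sources used here. RMA scales the arrays to one another, so a change in RNA per cell may not show, and it compresses differences at low levels; the deposited arrays still differed slightly in their medians. No detection calls were used, so a level below the array median (5.01 to 5.13) may be background. Levels of different probe sets are not comparable, and the number of arrays, 3 per group, limits the precision.

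The test was limma 3.58.1 (R 4.3.3), lmFit and eBayes with the group as the only term, two-sided, fitted to all 22206 probe sets and adjusted by Benjamini-Hochberg over them; changes are K313 minus WT. On simulated data (22206 probe sets, 50 planted changes per size) 8% of changes of 0.5, 80% of 1 and 100% of 2 on the log2 scale were recovered. The data held more called probe sets (1720), which makes the adjusted cut-off less strict than in the simulation. These recovery shares therefore need not hold for the data. Genes were named by the platform annotation (19572 probe sets with 1 symbol, 2634 with none), and all 19572 gene identifiers were found in RefSeq's table (GRCm38.p6), used for gene order; promoter sequences are RefSeq's for the same build. The array's build is not given, so no probe set coordinates are printed.

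The 10 genes, the gene lists and the motifs were chosen with earlier results of these data known. Named genes follow a rule: the 10 genes, up to 4 of each list by smallest p, called genes of the family and IgE receptor lists, called neighbours, and the 3 nearest profiles of the 4 called genes with the largest change. Genes named beyond it (Fcer1a, Fcer1g, Syk, Btk, Gata2, Tpsab1, Tpsb2, Mrgprb2, Cpa3, Pax5, Cd22, C1qa, C1qb, C1qc, Marco, Mertk, Cd163, Klf4, Mpo, Ltf, Camp, Csf3r, Adgre1, Gm8369, Ms4a4d and Cebpa) were chosen after their values were seen. Alternatives were quantile normalization, a common array median, a low-signal filter (lowest 30% of probe sets left out), an intensity trend with robust prior, array weights, ordinary variance, a replicate block and leaving out each array.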

Additional observations from a re-analysis of the deposited data

How the results depend on the processing

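The 5 Ms4a calls held with quantile normalization, a common median, the low-signal filter, the intensity trend and array weights. With ordinary variance per probe set 1 gene, Ms4a6c, was called, and 496 in place of 1720 probe sets. Leaving out single arrays gave 2 to 4 called Ms4a genes and 1228 to 1465 probe sets. The labels do not say whether the replicate numbers pair the arrays. The deviations of same-numbered arrays from their group means correlated at -0.0607, 0.0291 and -0.0617, and WT replicate 3 correlated best with K313 replicate 1 (0.138). Such correlations cannot settle how the arrays were handled, so pairing stays unknown. With the replicate number as a block 4 Ms4a genes and 1546 probe sets were called. The direction of the 5 called Ms4a genes was the same in all 13 alternatives, but most of these could not have turned it. Every K313 array lay above every WT array for these genes, so leaving out 1 array could not. Ordinary variance, the replicate block, the intensity trend and the low-signal filter leave the estimated change itself as it was. Among the listed Ms4a genes, signs turned only in those that were not called: Ms4a2 ranged from -0.15 to 0.42 when single arrays were left out, and Ms4a7 from -0.19 to 0.13, with 0.05 under array weights. Alternative values were also taken for 56 other genes: those picked by the naming rule, not all of them named above, with Gata2, Csf3r and Adgre1. Of these 727 values, 65 lost a call, 5 gained one and 0 changed sign. The remaining genes named beyond the rule have no alternative values here. The low-signal filter removed Ms4a1 and Ms4a8a, which then have no value. The cause of these shifts was not tested. With 3 arrays per group, small changes can be missed, so the uncalled genes are described by their intervals. In simulated data with fewer changed probe sets than were called here, 8% of changes of 0.5 on the log2 scale were recovered.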
